A study of Mus musculus with 14 samples.

Results

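The miR-34 and miR-449 microRNAs (miRNAs) of mouse dorsal root ganglia, the ganglia that house the cell bodies of sensory neurons, were followed in small RNA libraries of CAST/Ei and C57BL/6 mice. Members were all arms named miR-34a, miR-34b, miR-34c, miR-449a, miR-449b or miR-449c. Of the 1123 mature miRNAs listed, 9 were arms of this family, and 8 of them were among the 638 that reached 5 CPM or more in 3 or more libraries and were tested. The ninth, miR-449c-3p, lay below that limit and is described from its reads and from a fit with no filter on low values. The arms of miR-449b and the 3p arm of miR-449a are not analysed here. There were 14 libraries in 4 groups, which the series' design text calls biological replicates. CAST/Ei injured ganglia gave 3 libraries, CAST/Ei naive ganglia 3, C57BL/6 injured ganglia 3 and C57BL/6 naive ganglia 5. Injured animals were males of 8 to 10 weeks with a left sciatic nerve crush of 30 s. Naive animals had no treatment, so the reference is not a sham operation, and neither their age nor their sex is given in the sources used here. The time from crush to dissection and the ganglia taken are not given either. All ganglia were dissociated before RNA extraction. Values are CPM (counts per 1e06 reads, on library sizes scaled by the TMM method), and log2 changes were taken on log2(CPM + 1).

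A mature miRNA guides an Argonaute protein to messenger RNAs that pair with its seed, the bases near its 5′ end, and lowers their output. The miR-34 genes are direct transcriptional targets of p53, the DNA damage response factor, and their 5p arms repress cell cycle and survival genes such as Bcl2. The miR-449 genes lie within Cdc20b, and together with miR-34b and miR-34c they are known for their role in multiciliated epithelial cells, where they promote cell cycle exit and the growth of motile cilia.

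The mature sequences show what defines the family. They are RefSeq sequences on GRCm38.p6, written 5′ to 3′ with the seed (bases 2 to 8) in capitals, and 8 of the 9 arms had an entry. For miR-34c-5p only the name is given. The 4 arms that share the seed GGCAGUG are shown first, because the strain and injury results concern their levels.
miR-34a-5p: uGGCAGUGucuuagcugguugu
miR-34b-5p: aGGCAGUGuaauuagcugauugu
miR-449a-5p: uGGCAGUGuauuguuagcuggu
miR-449c-5p: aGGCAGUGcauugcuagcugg
No other entry of the 1679 mature names in that table has this seed. miR-34a-5p and miR-449a-5p are identical over their first 9 bases and differ at 7 of the 22 positions compared. miR-449a-5p and miR-449c-5p differ at 3 of 21 positions, counted from 1 at the 5′ end, and these are U1A, U9C and U14C, with the miR-449a-5p base first. How reads that could match both were assigned is not given in the sources used here.

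The 3p arms do not carry the family seed, and they are shown because the injury result concerns one of them.
miR-34a-3p: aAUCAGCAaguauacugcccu
miR-34b-3p: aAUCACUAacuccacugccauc
miR-34c-3p: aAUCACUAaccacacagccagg
miR-449c-3p: cAGUUGCUagcugcacuacccu
miR-34b-3p and miR-34c-3p share the seed AUCACUA with each other and with no other entry. The miR-34a hairpin, printed with its 5p and 3p arms in capitals, shows how both arms come from one transcript.
Mir34a: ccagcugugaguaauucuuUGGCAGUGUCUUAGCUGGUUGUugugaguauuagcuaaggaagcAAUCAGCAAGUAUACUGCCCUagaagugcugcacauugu

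The genes sit at 3 loci. On GRCm38 with the GENCODE M21 annotation, Mir34a lies at chr4:150068454-150068555 on the plus strand and overlaps an exon of Gm37795, a transcript of the class to be experimentally tested. Mir34b, at chr9:51103562-51103645, and Mir34c, at chr9:51103034-51103110, are on the minus strand 451 bases apart, within introns of Btg4 on the opposite strand. Mir449c, at chr13:113035983-113036091, and Mir449a, at chr13:113037534-113037624, are on the plus strand 1442 bases apart, within introns of Cdc20b on the same strand. The genome build behind the deposited values is not given in the sources used here, so these positions place the genes and not the reads.

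The libraries held 4007706 to 15642360 reads over the 1123 miRNAs. C57BL/6 naive libraries 4 and 5 stood apart, with Spearman correlations of 0.871 to 0.926 to the other 12 libraries, whose own ranged between 0.925 and 0.993. Results that rest on these 2 libraries are therefore given with and without them. Of 5 sensory neuron miRNAs all 5 passed the filter on low values, and their summed level was 95969 to 105724 CPM in the 6 injured libraries against 120554 to 161052 CPM in the 8 naive libraries. These ranges did not overlap, but with libraries rescaled to equal totals they did (104774 to 114448 CPM in injured against 105386 to 148372 CPM in naive libraries). miR-138-5p, the most abundant of the 5, was 59722 to 69789 CPM in injured against 73154 to 113664 CPM in naive libraries. miR-124-3p, a neuronal miRNA, lay between 4736 and 33073 CPM over all libraries, with overlapping ranges. Of 3 myelinating glia miRNAs, miR-338-3p lay between 6735 and 42996 CPM and miR-338-5p between 921 and 3157 CPM. None of these 8 miRNAs passed the test in any of the 6 comparisons. Of 4 miRNAs known to be induced by nerve injury, 3 passed in CAST/Ei and 3 in C57BL/6, where 1.10% and 3.13% of all miRNAs passed. All were higher in injured than in naive ganglia. This list was chosen with earlier results of these data known, so it is no independent check. miR-431-5p had log2 changes of 1.93 ± 0.30 (SE, adjusted p = 0.00269) in CAST/Ei and 1.69 ± 0.27 (adjusted p = 0.00283) in C57BL/6. miR-21a-5p had 1.57 ± 0.32 (adjusted p = 0.0209) and 1.76 ± 0.29 (adjusted p = 0.00283) in the same strains. miR-21a-3p rose in CAST/Ei (2.89 ± 0.42, adjusted p = 0.00269) and miR-511-3p in C57BL/6 (1.47 ± 0.26, adjusted p = 0.00540).

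One arm made up nearly all of the family. miR-34a-5p was the 21st most abundant of the 1123 miRNAs by mean CPM, and its own 3p arm was the 199th. miR-34b-5p ranked 275th, miR-34c-5p 282nd and miR-449a-5p 307th, while miR-449c-5p ranked 528th, miR-34b-3p 556th, miR-34c-3p 592nd and miR-449c-3p 985th. In the sum of the 5 family 5p arms miR-34a-5p took 97.2% to 98.9% in every library. That sum was 14221 ± 981 CPM in CAST/Ei injured and 18160.3 ± 5791 in CAST/Ei naive ganglia (SD, n = 3 each). It was 13074 ± 1131 CPM in C57BL/6 injured (n = 3) and 13344 ± 3459.5 in C57BL/6 naive ganglia (n = 5). The ranges of the sum overlapped in both strains and in both states of injury. In bulk tissue, fewer cells of a type and less RNA per cell cannot be told apart, here and in every value below.

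**Figure D1:**
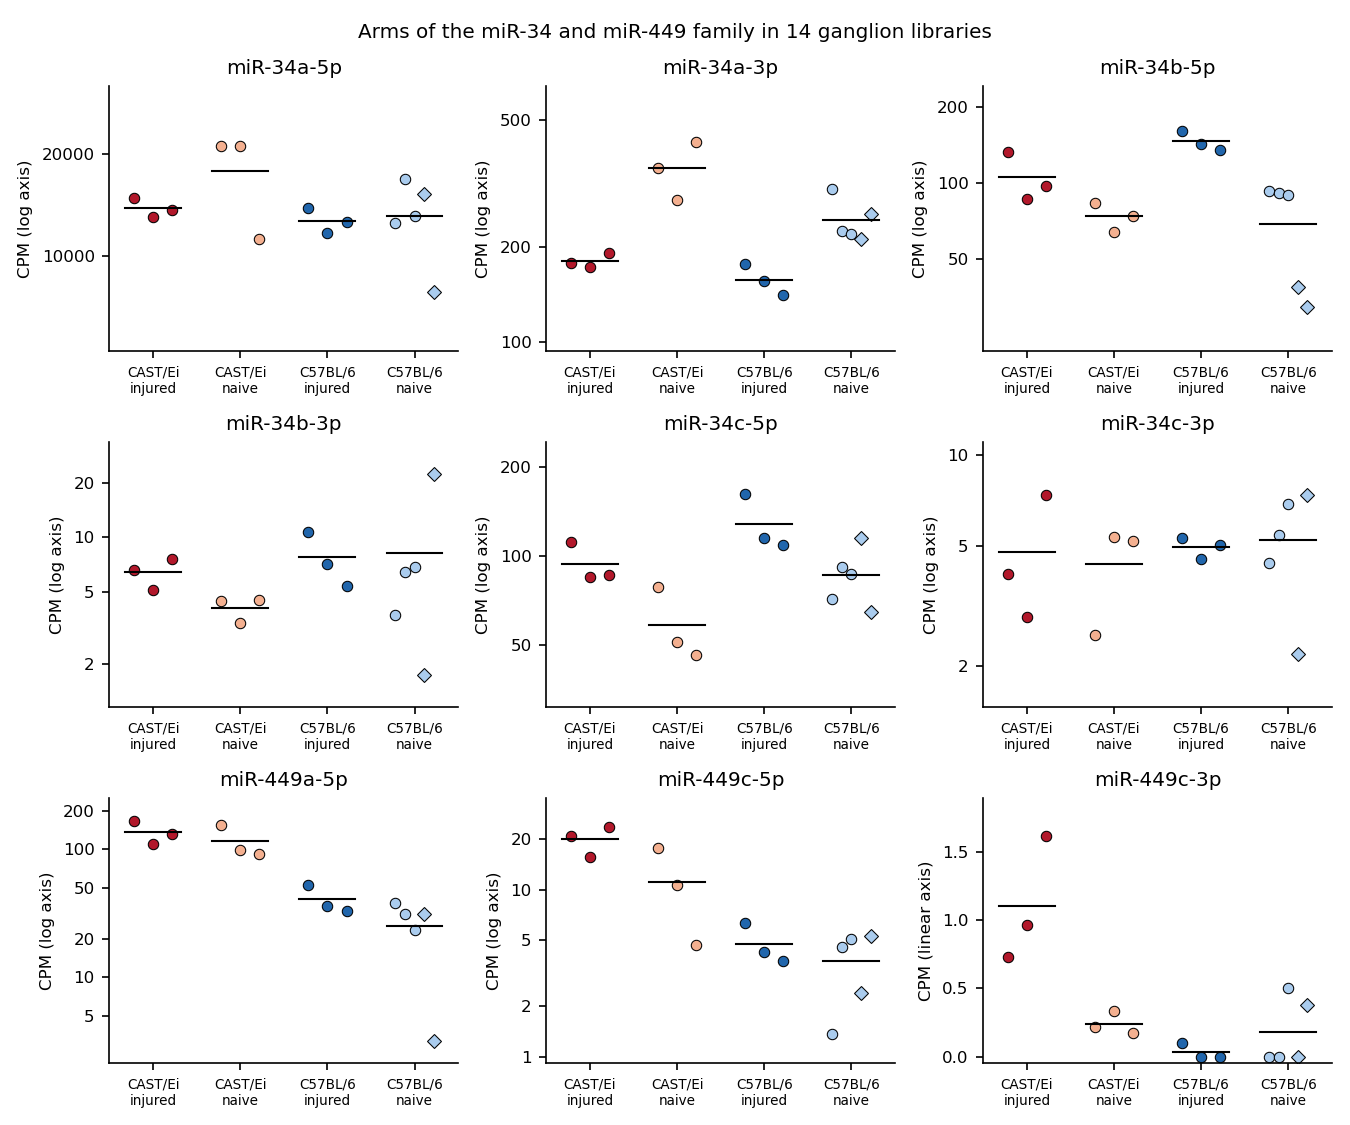
CPM of the 9 arms in each of the 14 libraries, on a log axis except for miR-449c-3p. Circles and diamonds are single libraries, the diamonds being C57BL/6 naive 4 and 5, and bars are group means. miR-449a-5p is higher in each CAST/Ei library than in any C57BL/6 library. With the deposited scaling shown, miR-34a-3p is at most 191 CPM in the injured libraries and at least 212 CPM in the naive ones. That separation of miR-34a-3p was lost with libraries rescaled to equal totals.

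The largest log2 changes within the family that passed the test lay between the strains and concerned the miR-449 locus. miR-449a-5p was 154, 99.2 and 92.0 CPM in the CAST/Ei naive libraries, against 38.1, 31.0, 23.6, 31.1 and 3.20 CPM in C57BL/6 naive libraries 1 to 5. The lowest CAST/Ei library was thus above the highest C57BL/6 library. The group means were 115 ± 34.0 CPM (SD, n = 3) in CAST/Ei and 25.4 ± 13.4 CPM (n = 5) in C57BL/6, a 4.53-fold ratio. The log2 change was 2.42 ± 0.56 (SE, adjusted p = 0.0119), the fourth largest increase of the 638 miRNAs tested. It was 1 of 8 arms that passed in naive ganglia, where 11.1% of all miRNAs tested passed. It was also the 1 arm of 8 whose groups did not overlap, against 16.5% of all miRNAs. Without C57BL/6 naive 4 and 5 it was still the 1 arm called, at 1.85 (adjusted p = 4.86e-04), where 14.3% of miRNAs passed. The call did not hold without CAST/Ei naive library 1 (2.20, adjusted p = 0.0645) or in a fit on the naive groups alone (2.42, adjusted p = 0.0687).

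miR-449c-5p, from the neighbouring hairpin, was less abundant. It was 17.7, 10.7 and 4.64 CPM in CAST/Ei naive libraries, against 1.37, 4.54, 5.07, 2.41 and 5.27 CPM in C57BL/6 naive libraries. The CAST/Ei library at 4.64 CPM lay within the C57BL/6 range, so the groups overlapped. The log2 change was 1.28 ± 0.41 (SE, adjusted p = 0.0561) with limma, while edgeR on whole reads gave 1.49 (adjusted p = 0.0363) and DESeq2 1.45 (adjusted p = 0.0157). Both tools thus called 2 arms in naive ganglia, miR-449a-5p and miR-449c-5p, where edgeR called 12.1% and DESeq2 18.5% of all miRNAs.

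In injured ganglia the same locus differed between the strains. miR-449c-5p was 21.0, 15.6 and 23.5 CPM in the CAST/Ei injured libraries, against 6.27, 4.21 and 3.73 CPM in the C57BL/6 injured libraries. All 3 CAST/Ei values were above all C57BL/6 values, and the means of 20.0 ± 4.05 and 4.74 ± 1.35 CPM (SD, n = 3 each) stood in a 4.23-fold ratio. Its log2 change of 1.88 ± 0.46 (SE, adjusted p = 0.0272) was the second largest increase of 638, and it was the 1 arm of 8 that passed, where 3.29% of all miRNAs passed. The limma call was lost when any 1 of the 6 injured libraries was left out. The log2 changes were then 1.75 to 2.06, with adjusted p between 0.0537 and 0.147. edgeR called miR-449c-5p alone of the 8 arms (2.14, adjusted p = 0.0227), where it called 3.29% of all miRNAs. Without C57BL/6 injured library 1 edgeR did not call it (2.36, adjusted p = 0.0583).

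miR-449a-5p was 168, 109.7 and 132 CPM in CAST/Ei injured libraries, against 52.97, 36.3 and 32.8 CPM in C57BL/6 injured libraries. Again the groups did not overlap, and the means of 137 ± 29.2 and 40.7 ± 10.8 CPM stood in a 3.36-fold ratio. Its log2 change of 1.73 ± 0.62 was the fourth largest increase and did not pass in the fit over all 14 libraries (adjusted p = 0.277). C57BL/6 naive libraries 4 and 5 are in neither of these groups but enter the shared estimate of spread, and without them the same log2 change of 1.73 had an adjusted p of 8.63e-04. DESeq2 gave 1.80 (adjusted p = 0.0295) and a fit on the injured groups alone 1.73 (adjusted p = 5.64e-04), while edgeR gave 1.81 (adjusted p = 0.172). In injured ganglia 2 arms, miR-449a-5p and miR-449c-5p, were thus called without naive 4 and 5, where 5.64% of miRNAs passed, and by DESeq2, where 3.92% did. Groups did not overlap for 3 of 8 arms in injured ganglia, against 35.9% of all miRNAs tested.

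The scarce 3p arm of miR-449c had its reads mainly in CAST/Ei injured ganglia. There were 8, 6 and 24 reads in CAST/Ei injured libraries 1 to 3, against 3, 3 and 1 for CAST/Ei naive. C57BL/6 injured libraries held 1, 0 and 0 reads. In C57BL/6 naive libraries 1 to 5 it had 0, 0, 2, 0 and 2 reads. Over whole groups this was 1.19 CPM in CAST/Ei injured (95% exact Poisson interval 0.840 to 1.63) and 0.0325 CPM in C57BL/6 injured ganglia (8.23e-04 to 0.181). The rates were 0.245 CPM in CAST/Ei naive (0.0983 to 0.504) and 0.106 CPM in C57BL/6 naive ganglia (0.0290 to 0.272). These intervals take the pooled reads of a group as independent counts and leave out the spread between libraries. The libraries also carry no molecular identifiers, so repeated reads of 1 molecule cannot be told apart. In a fit with no filter on low values, the strain difference in injured ganglia was a log2 change of 1.01 on the log2(CPM + 1) scale (adjusted p = 0.0218), and that in naive ganglia 0.10 (adjusted p = 0.80). The injury effect in that fit did not pass in either strain, at 0.74 (adjusted p = 0.361) in CAST/Ei and -0.16 (adjusted p = 0.727) in C57BL/6.

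Measured as shares of the 5 family 5p arms, which no scaling of the library can alter, miR-449a-5p was 0.822% to 1.10% in CAST/Ei injured against 0.253% to 0.371% in C57BL/6 injured ganglia. In naive ganglia its share was 0.462% to 0.802% in CAST/Ei against 0.0401% to 0.299% in C57BL/6. The miR-449c-5p share was 0.117% to 0.167% in CAST/Ei injured and 0.0288% to 0.0440% in C57BL/6 injured ganglia, and 0.0405% to 0.0824% in CAST/Ei naive against 0.0107% to 0.0660% in C57BL/6 naive ganglia. Thus the miR-449a-5p shares did not overlap between strains in either state, and the miR-449c-5p shares overlapped in naive ganglia alone. Ordered by mean CPM, the groups ran CAST/Ei injured, CAST/Ei naive, C57BL/6 injured and C57BL/6 naive for both 5p arms. The ranges of neighbours in this order overlapped, except between CAST/Ei naive and C57BL/6 injured for miR-449a-5p.

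**Figure D2:**
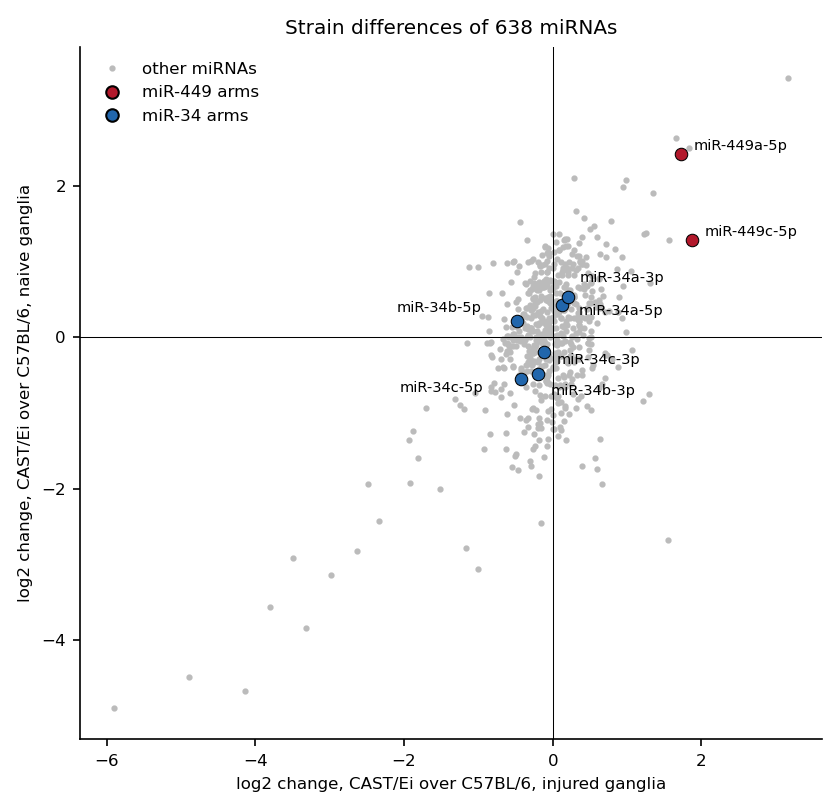
Log2 change of CAST/Ei over C57BL/6 in injured ganglia (x axis) and in naive ganglia (y axis) for the 638 miRNAs tested. The miR-449 arms (red) lie at 1.73 and 2.42 for miR-449a-5p and at 1.88 and 1.28 for miR-449c-5p, toward the upper right edge, while the 6 miR-34 arms (blue) lie within the bulk of the other miRNAs (grey).

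The miR-34 arms showed no such strain difference that passed the test. In naive ganglia their log2 changes of CAST/Ei over C57BL/6 lay between -0.55 (miR-34c-5p, adjusted p = 0.169) and 0.54 (miR-34a-3p, adjusted p = 0.107). In injured ganglia they lay between -0.48 (miR-34b-5p, adjusted p = 0.896) and 0.20 (miR-34a-3p, adjusted p = 0.974). miR-34b-5p was 133, 86.9 and 97.7 CPM in CAST/Ei injured libraries, against 161, 142 and 135 CPM in C57BL/6 injured libraries, and these values did not overlap. The median log2 change of the 8 arms was 0.33 in naive and 0.00 in injured ganglia, beside 0.12 and -0.06 over all 638 miRNAs.

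Markers of epithelial cells, in which miR-449 is known to be made, were measured beside these results. All 7 miRNAs of the epithelial list passed the filter, and none passed the test in any comparison. Their summed level was 271 to 338 CPM in CAST/Ei injured and 217 to 290.3 CPM in C57BL/6 injured ganglia, and 272 to 384 CPM in CAST/Ei naive against 225 to 1591 CPM in C57BL/6 naive ganglia. miR-203-3p, a miRNA of stratified epithelia and the most abundant of the list, was 208 to 261 CPM in CAST/Ei injured and 179 to 211 CPM in C57BL/6 injured ganglia. Of the 7, 6 had a higher mean log2 level in CAST/Ei injured than in C57BL/6 injured ganglia, and the groups did not overlap for 1, miR-429-3p of the miR-200 family, at 14.8 to 16.3 CPM in CAST/Ei against 4.62 to 6.92 CPM in C57BL/6 (log2 change 1.23 ± 0.68, adjusted p = 0.672). In naive ganglia 4 of the 7 had a higher and 3 a lower mean log2 level in CAST/Ei than in C57BL/6, between 1.36 ± 0.61 for miR-429-3p (adjusted p = 0.142) and -1.22 ± 0.47 for miR-200c-3p (adjusted p = 0.0906). miR-200a-3p, which holds cells in the epithelial state, was 53.6, 35.1 and 37.1 CPM in CAST/Ei naive libraries, against 5.75, 11.7, 8.61, 576 and 115 CPM in C57BL/6 naive libraries. Within C57BL/6 naive, libraries 4 and 5 were thus highest in miR-200a-3p, with miR-449a-5p at 31.1 and 3.20 CPM, no higher than the 38.1 CPM of library 1. Without libraries 4 and 5, again 4 of the 7 were higher and 3 lower in CAST/Ei naive. Of those 4, 3 (miR-200a-3p, miR-200b-3p and miR-429-3p) did not overlap between the strains and were higher in CAST/Ei, as miR-449a-5p was. The share of all miRNAs without overlap was not taken for this comparison of 3 against 3 libraries. In injured ganglia, also 3 against 3, that share was 35.9%. The part of epithelial cells in the strain differences was not tested. The testis miRNAs of the X chromosome, another tissue in which the family is abundant, had 1 of 9 list names among the miRNAs measured, miR-741-3p at 0 to 1.26 CPM.

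After nerve injury the member that changed was the 3p arm of miR-34a, usually regarded as the passenger strand of that hairpin. miR-34a-3p was 178, 172 and 191 CPM in CAST/Ei injured libraries, against 355, 281 and 428 CPM in CAST/Ei naive libraries. It was 176, 156 and 140.4 CPM in C57BL/6 injured libraries, against 304, 224, 219.7, 212 and 253 CPM in C57BL/6 naive libraries. With the deposited scaling, each of the 6 injured libraries was below each of the 8 naive libraries, across both strains. The share of all miRNAs separated in this way was not taken, so how unusual it is cannot be said. This separation was lost with libraries rescaled to equal totals, where C57BL/6 naive library 4 fell within the range of the C57BL/6 injured libraries. With the deposited scaling miR-138-5p, 1 of the 5 sensory neuron miRNAs, was separated in the same direction, as was the sum of the 5. The ranges of that sum also overlapped with libraries rescaled to equal totals. Their averaged injury effects lay between -0.58 ± 0.18 for miR-182-5p (SE of log2 change, adjusted p = 0.0956) and 0.21 ± 0.35 for miR-124-3p (adjusted p = 0.785), with miR-138-5p at -0.49 ± 0.14 (adjusted p = 0.0720). The part of neuronal RNA in the lower miR-34a-3p was not tested. The means were 181 ± 9.90 CPM in CAST/Ei injured against 355 ± 73.2 CPM in CAST/Ei naive ganglia (SD, n = 3 each), a ratio of 0.509. In C57BL/6 they were 158 ± 18.0 CPM in injured (n = 3) against 242 ± 37.6 CPM in naive ganglia (n = 5), a ratio of 0.650.

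Averaged over the strains, miR-34a-3p had a log2 change of -0.78 ± 0.16 (SE, adjusted p = 0.0105), and it was the 1 arm of 8 that passed, where 4.23% of all miRNAs passed in either direction and 1.10% were lower. Within a strain the log2 changes were -0.95 ± 0.25 in CAST/Ei (adjusted p = 0.0924) and -0.61 ± 0.22 in C57BL/6 (adjusted p = 0.127), and the difference between them was -0.34 ± 0.33 (adjusted p = 0.678). In neither strain did any arm pass, against 1.10% of miRNAs in CAST/Ei and 3.13% in C57BL/6, with 2 arms in CAST/Ei and 3 in C57BL/6 at an unadjusted p under 0.05, a level reached by 6.43% and 23.7% of all miRNAs. Without C57BL/6 naive 4 and 5 miR-34a-3p passed in CAST/Ei, at -0.95 (adjusted p = 0.0223), as the 1 arm of 8 where 2.66% of miRNAs passed. DESeq2 called 1 arm in each strain, miR-34a-3p, where it called 2.51% of all miRNAs in CAST/Ei and 12.4% in C57BL/6. The log2 changes were -0.88 in CAST/Ei (adjusted p = 0.0363) and -0.72 in C57BL/6 (adjusted p = 0.0256). edgeR called no arm in either strain, where it called 1.25% of all miRNAs in CAST/Ei and 5.02% in C57BL/6. Averaged over the strains DESeq2 called 2 arms, miR-34a-3p (-0.80, adjusted p = 2.71e-04) and miR-34b-5p (0.80, adjusted p = 0.0472), and 7.52% of all miRNAs. Of the 8 arms edgeR called miR-34a-3p alone in the averaged comparison (-0.84, adjusted p = 0.00867), where it called 4.08% of all miRNAs. The averaged limma call of miR-34a-3p did not hold when libraries were rescaled to equal totals (-0.58, adjusted p = 0.106), or to equal totals without the 3 most abundant miRNAs (-0.63, adjusted p = 0.0836). The first rescaling moved the median of all miRNAs to 0.20, against 0.01 with the deposited scaling, and relative to those medians miR-34a-3p lay at -0.78 and -0.79.

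The guide strand of the same hairpin did not show this difference. miR-34a-5p was 14846, 13045 and 13704 CPM in CAST/Ei injured libraries, against 21209, 21239 and 11256 CPM in CAST/Ei naive libraries. It was 13882, 11714 and 12668 CPM in C57BL/6 injured libraries, against 12552, 16905, 13206, 15264 and 7872 CPM in C57BL/6 naive libraries. The groups overlapped in both strains, with log2 changes of -0.31 (95% interval -0.96 to 0.34) in CAST/Ei and -0.00 (-0.58 to 0.58) in C57BL/6. The log2 ratio of miR-34a-5p over miR-34a-3p was 6.25 ± 0.11 in CAST/Ei injured against 5.61 ± 0.80 in CAST/Ei naive ganglia (SD, n = 3 each, difference 0.64, exact two-sided permutation p = 0.200). In C57BL/6 it was 6.33 ± 0.14 in injured (n = 3) against 5.72 ± 0.55 in naive ganglia (n = 5, difference 0.61, exact two-sided permutation p = 0.0714). The mean ratio was thus higher in injured than in naive ganglia in both strains, and the ranges overlapped. Over the 16 ratio comparisons made, the Benjamini-Hochberg adjusted p was 0.791 for both. The smallest p these group sizes allow is 0.100 for 3 against 3 libraries and 0.0357 for 3 against 5. Even with every comparison at its smallest p, no adjusted p would have been under 0.05. This test could therefore not decide whether the arms changed unequally.

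**Figure D3:**
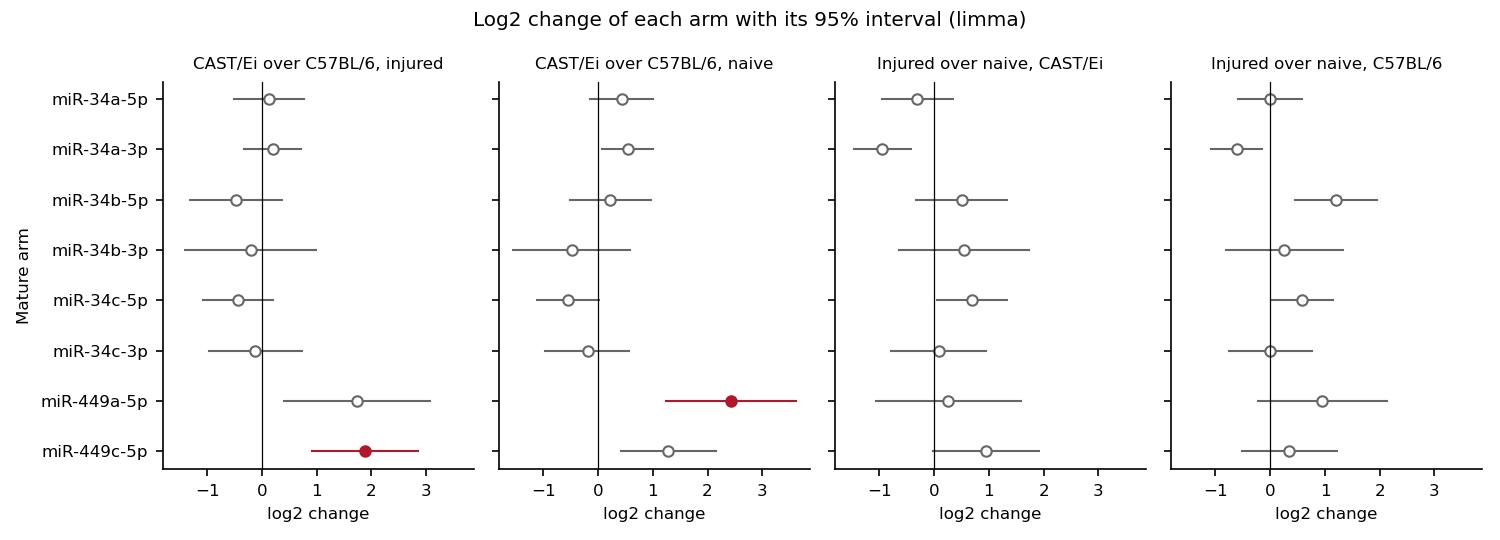
Log2 change of each of the 8 arms tested in the 4 pairwise comparisons, with 95% intervals from limma. Filled red points passed an adjusted p of 0.05, which were miR-449c-5p between strains in injured and miR-449a-5p between strains in naive ganglia, and open grey points did not.

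The 5p arms of the chromosome 9 pair had higher values in injured libraries, but the differences did not pass the test. miR-34b-5p was 161, 142 and 135 CPM in C57BL/6 injured libraries, against 93.4, 91.8, 89.4, 39.1 and 32.5 CPM in C57BL/6 naive libraries. Every injured library was above every naive one, and libraries 4 and 5 were the lowest. The log2 change was 1.20 ± 0.35 (SE, adjusted p = 0.079), it was 0.66 (adjusted p = 0.0962) without C57BL/6 naive 4 and 5, and it was 1.32 (adjusted p = 0.0310) without C57BL/6 naive library 3. In CAST/Ei miR-34b-5p was 133, 86.9 and 97.7 CPM in injured libraries, against 83.3, 64.4 and 74.5 CPM in naive libraries. These groups did not overlap either, and the log2 change was 0.50 ± 0.39 (adjusted p = 0.819).

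miR-34c-5p was 111, 84.6 and 86.1 CPM in CAST/Ei injured libraries, against 78.4, 51.5 and 46.4 CPM in CAST/Ei naive libraries, with no overlap and a log2 change of 0.69 ± 0.30 (adjusted p = 0.663). It was 161, 115 and 109 CPM in C57BL/6 injured libraries, against 71.7, 91.7, 86.9, 115 and 64.7 CPM in C57BL/6 naive libraries, where the highest naive value lay within the injured range (0.58 ± 0.27, adjusted p = 0.204). Averaged over the strains, the log2 changes were 0.85 ± 0.26 for miR-34b-5p (adjusted p = 0.0916) and 0.64 ± 0.20 for miR-34c-5p (adjusted p = 0.0952). Without C57BL/6 naive 4 and 5 both passed, at 0.58 (adjusted p = 0.0255) and 0.65 (adjusted p = 0.0322), which with miR-34a-3p made 3 arms of 8, where 8.62% of miRNAs passed. miR-34c-5p also passed when libraries were rescaled to equal totals (0.84, adjusted p = 0.0196). Between injured and naive ganglia, groups did not overlap for 4 of 8 arms in CAST/Ei, against 26.6% of all miRNAs, and for 2 of 8 in C57BL/6, against 14.9%. The median log2 change of injury over the 8 arms was 0.38 in CAST/Ei and 0.31 in C57BL/6, beside -0.09 and 0.12 over all 638 miRNAs.

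The level of miR-34c-5p followed that of its neighbour closely in all libraries but 2. The log2 ratio of miR-34c-5p over miR-34b-5p lay between -0.67 and 0.00 in 12 libraries and was 1.54 and 0.97 in C57BL/6 naive 4 and 5. In those 2 libraries miR-34b-5p was lowest, at 39.1 and 32.5 CPM, while miR-34c-5p, at 115 and 64.7 CPM, spanned the range of the other naive libraries of the strain. Over the 4 group comparisons of this ratio the lowest exact permutation p was 0.143 (CAST/Ei naive -0.36 ± 0.29, n = 3, against C57BL/6 naive 0.42 ± 0.80, n = 5).

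**Figure D4:**
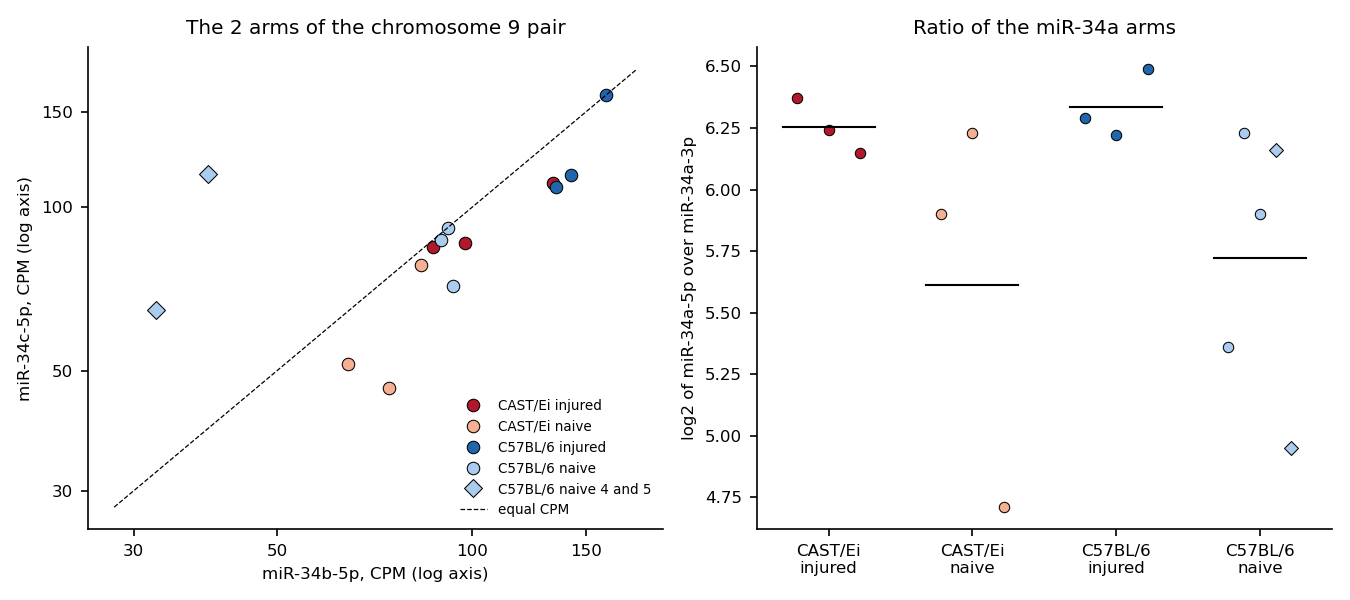
Left, CPM of miR-34c-5p against miR-34b-5p in the 14 libraries on log axes, with a dashed line of equal CPM; 12 libraries lie on or just below the line, and C57BL/6 naive 4 and 5 (diamonds) lie above it. Right, the log2 ratio of miR-34a-5p over miR-34a-3p in each library, with bars for group means of 6.25, 5.61, 6.33 and 5.72 from left to right.

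The 3p arms of the pair were scarce and varied without a difference that passed. miR-34b-3p was 6.57, 5.14 and 7.55 CPM in CAST/Ei injured libraries, against 4.42, 3.34 and 4.47 CPM in CAST/Ei naive libraries. It was 10.8, 7.09 and 5.37 CPM in C57BL/6 injured libraries, against 3.70, 6.40, 6.84, 1.72 and 22.4 CPM in C57BL/6 naive libraries. The lowest and the highest of the 14 values were those of C57BL/6 naive 4 and 5. miR-34c-3p lay between 2.18 and 7.34 CPM over all libraries, with 18 to 109 reads each, and its log2 changes were 0.08 in CAST/Ei (95% interval -0.78 to 0.94) and 0.00 in C57BL/6 (-0.76 to 0.77). The 5p arm exceeded the 3p arm at both genes in every library, by a log2 ratio of 3.53 or more for miR-34b outside C57BL/6 naive 5, where it was 0.52.

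For miR-449a-5p and miR-449c-5p the injury comparison did not pass in either strain. The log2 changes of miR-449a-5p were 0.26 ± 0.62 in CAST/Ei (adjusted p = 0.947) and 0.95 ± 0.56 in C57BL/6 (adjusted p = 0.325). The C57BL/6 value was 0.37 (adjusted p = 0.457) without naive library 5 and 0.38 (adjusted p = 0.479) without naive 4 and 5. Those of miR-449c-5p were 0.95 ± 0.46 in CAST/Ei (adjusted p = 0.667) and 0.35 ± 0.41 in C57BL/6 (adjusted p = 0.628). None of the 8 arms differed between the strains in its injury effect (lowest adjusted p 0.592, for miR-34b-5p at -0.70 ± 0.53), where 0% of all miRNAs passed with limma. None of the 8 had an unadjusted p under 0.05 in that comparison, against 8.15% of all miRNAs. Neither edgeR nor DESeq2 called any of them, where edgeR called 0.157% and DESeq2 1.41% of all miRNAs.

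Other miRNAs described as induced by p53 were set beside the family. Of 10 such miRNAs 9 passed the filter, and none of the 9 passed the test in any of the 6 comparisons. miR-16-5p, whose processing is known to be enhanced by p53, had an injury effect averaged over the strains of 0.20 ± 0.17 (SE of log2 change, adjusted p = 0.612). miR-145a-5p, another of that kind and abundant in smooth muscle, had -0.16 ± 0.23 (adjusted p = 0.749). The median of the 9 was -0.06, beside 0.01 over all 638 miRNAs. The 2 lists were drawn from general knowledge, and miR-200c-3p and miR-141-3p stand in both this and the epithelial list.

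The miRNAs most like each leading arm were taken as those with the smallest root mean square difference of centred log2(CPM + 1) over the 14 libraries. For miR-34a-5p these were miR-24-3p (0.24), miR-181b-5p (0.25) and miR-107-3p (0.26), where the median over the 637 other miRNAs was 0.62, and its own 3p arm ranked 185th. In the 12 libraries without C57BL/6 naive 4 and 5 the nearest were 3 other miRNAs, miR-29a-3p (0.19), miR-135b-5p (0.20) and miR-497-5p (0.23), where the median was 0.49 and the 3p arm ranked 306th. For miR-34b-5p they were miR-17-5p (0.22), miR-18a-5p (0.30) and let-7i-5p (0.32), with a median of 0.77, and miR-34c-5p ranked 94th. In those 12 libraries miR-34c-5p ranked first for miR-34b-5p at 0.19. For miR-449a-5p they were miR-669f-5p (0.56), miR-669b-5p (0.70) and miR-669e-5p (0.71), with a median of 1.43, and over the 12 libraries miR-467d-5p (0.38), miR-669f-5p (0.43) and miR-669e-5p (0.51), with a median of 1.01. miR-449c-5p ranked 38th for miR-449a-5p over the 14 libraries and 6th over those 12. These likenesses describe the libraries, which share their scaling and their 2 libraries that stood apart.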

How the data were processed

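Small RNA of dissociated ganglia was extracted with the miRVana kit and made into libraries with the Ion Total RNA-Seq kit, per the labels' protocols. Bowtie2 was used, per the submitters' processing notes; the sources used here give neither its version nor the genome build or reference strain. The deposited files hold 1 signal value per miRNA and library, made by the authors and called CPM here. All values are whole multiples of 1 read within 1e-06 reads, and edgeR's TMM factors equal the reciprocal scaled totals within 9.1e-06, so the signal is CPM on TMM-scaled sizes. One read is worth 0.0674 to 0.253 CPM. For C57BL/6 injured 1 the recovery of reads is less certain.

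limma 3.58.1 (R 4.3.3) was fitted with a trend to log2(CPM + 1) of 638 miRNAs (at least 5 CPM in at least 3 libraries), with 4 group means over 14 libraries and Benjamini-Hochberg adjustment over all 638 at a threshold of 0.05. edgeR 4.0.16 and DESeq2 1.42.0 on recovered reads were alternatives. limma and edgeR were first tested on simulated data. Log ratios were compared by exact two-sided permutation tests (scipy 1.17.1). All arms found by name are reported. Of each marker list, members that passed (at most 3) or else the 2 most abundant are named, and miR-21a-3p, miR-511-3p, miR-182-5p, miR-200b-3p, miR-200c-3p, miR-429-3p and miR-141-3p were named after their values were seen. Members and lists were chosen with earlier results of these data known.

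Replicate numbers are shared between groups. In the naive strain comparison the deviations of same-numbered libraries had correlations of 0.114, 0.104 and 0.108, all just past the limit of 0.1. For number 2 a library of another number correlated more highly (0.129), so a pairing was not shown. In the other 3 comparisons at least 1 pair was under that limit. Any pairing would rest on the numbers in the titles alone, and the main fit took the libraries as unpaired.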

Additional observations from a re-analysis of the deposited data

Results flagged for a closer look

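In groups of 4 to 10 libraries, which here is C57BL/6 naive, 2 of 14 sets of values had a library set apart by more than Dixon's 95% limit for 5 values, 0.71 of the range. Chance alone sets about 1 in 20 such groups apart. miR-34b-3p was 22.4 CPM in C57BL/6 naive library 5, against 1.72 to 6.84 CPM in the other 4 libraries, with a gap of 0.752 of the range. The log2 ratio of miR-34b-5p over miR-34b-3p was 0.52 in the same library, with a gap of 0.790 of the range. This ratio contains the same miR-34b-3p value, so the 2 cases are not independent and cannot be counted separately against that rate.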

How the results depend on the processing

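Counts of arms called moved under these alternatives. With DESeq2 they were 1 for injury in C57BL/6, 1 for injury in CAST/Ei, 2 for the strains in naive, 2 in injured ganglia and 2 for averaged injury. Without C57BL/6 naive 4 and 5 they were 1 for injury in CAST/Ei, 2 for the strains in injured ganglia and 3 for averaged injury. The replicate block gave the same 3 counts and moved no other; libraries 4 and 5 are alone in their blocks, so that fit gives them no weight. The count was 2 for the strains in naive ganglia with edgeR and 2 in injured ganglia with no filter. A fit on the 2 groups compared gave 0 in naive and 2 in injured ganglia. edgeR without C57BL/6 injured 1, added after seeing the data, gave 2 in naive and 0 in injured ganglia. Rescaling to equal totals left the averaged count at 1, but the arm was miR-34c-5p and not miR-34a-3p. Leaving out 1 library at a time, the counts ranged from 0 to 1 for injury in C57BL/6, from 0 to 2 for the strains in naive and in injured ganglia, and from 1 to 2 for averaged injury. For the counts that moved with DESeq2, with edgeR on all 14 libraries and without naive 4 and 5, shares of all miRNAs called are given with the results above. For the other alternatives no share was taken, so their counts cannot be set against a background.

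Changes near 0 took the other sign, none of them past the threshold. For miR-34c-3p, injury in C57BL/6 was -0.02 with a pseudocount of 5, -0.18 with edgeR, -0.15 with DESeq2 and -0.13 both without naive 4 and 5 and with the replicate block. Its averaged injury effect was -0.00 with edgeR and -0.02 in both of those, and its strain difference in injured ganglia 0.01 with edgeR and DESeq2. For miR-34b-3p, injury in C57BL/6 was -0.17 with edgeR and -0.15 with DESeq2. For miR-34a-5p, rescaling to equal totals gave 0.14 for injury in C57BL/6 (0.07 without the 3 most abundant miRNAs) and 0.05 averaged. For miR-34b-5p, the strain difference in naive ganglia was -0.02 with edgeR, -0.05 with DESeq2 and -0.31 both without naive 4 and 5 and with the replicate block. With edgeR without C57BL/6 injured 1, injury in C57BL/6 was -0.21 for miR-34c-3p and -0.45 for miR-34b-3p, and the strain difference in injured ganglia 0.03 and 0.08 for the same arms; that for miR-34b-5p in naive ganglia and averaged injury for miR-34c-3p were both -0.02. The causes were not tested.

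Leaving out 1 library at a time gave ranges that crossed 0 for values near it. For injury in C57BL/6 they were -0.22 to 0.13 for miR-34c-3p, -0.08 to 0.70 for miR-34b-3p and -0.18 to 0.10 for miR-34a-5p. For miR-34c-3p they were -0.23 to 0.32 for injury in CAST/Ei, -0.11 to 0.16 averaged, and -0.42 to 0.08 for the strains in naive and -0.42 to 0.13 in injured ganglia. The strain range was -0.01 to 0.37 for miR-34b-5p in naive and -0.41 to 0.03 for miR-34b-3p in injured ganglia. The strain difference in the injury effect ranged from -0.03 to 0.34 for miR-34c-5p, -0.23 to 0.32 for miR-34c-3p and -0.15 to 0.62 for miR-34b-3p. Among the log ratios, miR-34a-5p over miR-34a-3p ranged from -0.42 to 0.34 between the strains in naive ganglia, miR-34b-5p over miR-34b-3p from -0.20 to 0.11 for injury in CAST/Ei, and in injured ganglia between the strains miR-34c-5p over miR-34c-3p from -0.50 to 0.05 and over miR-34b-5p from -0.02 to 0.15.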
